A study of Mus musculus with 8 samples.

Results

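Immediate early genes are a class of genes transcribed within minutes of a signal, before any new protein is made, and 10 of them that encode transcription factors or their close companions are described here in mouse embryonic epidermis. The 10 genes were taken by name (Fos, Fosb, Jun, Junb, Egr1, Egr2, Egr3, Ier2, Ier3 and Atf3) from 23146 genes counted. The row with the largest total was used for a gene with several transcripts, and each of the 10 had 1 transcript in the files. All 10 were among the 16342 genes that passed the filter on low counts. Their total counts per gene and library ran from 17 (Fosb in an E15.5 control library) to 3428 (Jun in the other one).

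The series asks what Noc2l, also called Nir, does in developing epidermis. Noc2l encodes an inhibitor of histone acetylation that binds p53 and takes part in ribosome assembly. RNA was sequenced in 8 libraries, 2 from each of 4 groups. These were knockout (Nir KO) and control epidermis at stage E17.5, and knockout and control epidermis at stage E15.5, both in days of embryonic development. Knockout embryos came from a cross of floxed Nir mice with Krt14-Cre mice. The Cre recombinase is therefore driven by the promoter of keratin 14, a keratin of basal keratinocytes, and cells that never express keratin 14 should keep an intact gene. Controls were floxed Nir mice, so the floxed allele is shared by all 4 groups. The labels do not say whether controls carried Cre, which exons are floxed, or whether the libraries of a group came from separate embryos, litters or pools. The p-values below therefore measure the spread between these libraries, which may be technical.

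In resting cells the promoters of this class are held ready, and growth factors, stretch, wounding or stress reach them through MAP kinases, serum response factor (SRF) with its ternary complex factors, and CREB. FOS and JUN proteins pair through leucine zippers to form the dimeric factor AP-1, which in epidermis regulates keratinocyte proliferation and late differentiation. EGR proteins are zinc finger factors whose activity is held back by the corepressors NAB1 and NAB2. ATF3 is a stress-induced member of the ATF family that can pair with JUN proteins, and IER2 and IER3 are small proteins induced together with the factors.

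Promoter windows from RefSeq (GRCm38.p6) spanned 250 bases before the start base of a transcript and 50 bases from it onward. They were used for 7 of the 10 genes: Atf3, Egr2, Fos, Fosb, Ier3, Jun and Junb. The 4 shown belong to Fosb and Atf3, which rose in knockout epidermis at both stages, to Junb, which fell at E15.5, and to Fos, which was called between the stages in control epidermis. Capitals mark the half-site of the CREB and ATF element (TGACG, or CGTCA where it lies on the other strand), the EGR site (GCGNGGGCG) and the TATA box (TATAAA). All lie on GRCm38.p6: Fosb at chr7:19309996-19310295 on the minus strand, Atf3 at chr1:191183284-191183583 on the minus strand, Junb at chr8:84978699-84978998 on the minus strand and Fos at chr12:85473640-85473939 on the plus strand.
Fosb: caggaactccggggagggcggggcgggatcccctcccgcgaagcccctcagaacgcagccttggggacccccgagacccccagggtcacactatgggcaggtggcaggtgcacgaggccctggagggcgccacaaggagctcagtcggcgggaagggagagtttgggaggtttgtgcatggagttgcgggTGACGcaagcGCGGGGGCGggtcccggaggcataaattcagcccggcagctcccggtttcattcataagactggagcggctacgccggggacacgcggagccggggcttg
Atf3: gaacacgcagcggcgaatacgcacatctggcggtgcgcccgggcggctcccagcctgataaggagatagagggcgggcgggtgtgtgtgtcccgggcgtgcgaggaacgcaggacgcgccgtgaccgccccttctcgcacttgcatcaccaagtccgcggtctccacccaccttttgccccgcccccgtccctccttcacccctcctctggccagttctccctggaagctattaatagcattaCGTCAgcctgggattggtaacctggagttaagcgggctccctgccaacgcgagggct
Junb: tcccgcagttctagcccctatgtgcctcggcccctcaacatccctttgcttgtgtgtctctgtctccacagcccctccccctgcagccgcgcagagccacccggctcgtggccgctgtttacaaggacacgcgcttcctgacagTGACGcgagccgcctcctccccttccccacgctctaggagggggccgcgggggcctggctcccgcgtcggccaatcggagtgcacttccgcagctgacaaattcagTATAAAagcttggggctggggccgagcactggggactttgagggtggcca
Fos: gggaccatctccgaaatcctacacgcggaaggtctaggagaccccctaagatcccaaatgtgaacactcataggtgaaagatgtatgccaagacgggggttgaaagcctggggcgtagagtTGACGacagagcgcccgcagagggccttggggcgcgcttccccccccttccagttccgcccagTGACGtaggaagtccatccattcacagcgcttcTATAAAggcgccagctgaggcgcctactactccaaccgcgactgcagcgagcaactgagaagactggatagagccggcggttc

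With the start base of the window's transcript counted as position 0, which for Fosb lies inside the span of the whole gene given further on, the Fosb window held TGACG at -60 to -56 and the EGR site at -50 to -42. The Fos window held TGACG in 2 places, at -129 to -125 and at -66 to -62, and the TATA box at -33 to -28. In the Atf3 window the half-site lay on the opposite strand at -7 to -3. The Junb window held TGACG at -106 to -102 and TATAAA at 0 to 5. These TATAAA letters begin at the annotated start base, not before it as in Fos. Both strands of the windows were searched, while Egr1, Egr3, Ier2 and bases outside the windows were not. TGACG was found in 5 of the 7 genes (Atf3, Egr2, Fos, Fosb and Junb) and in 20.8% of all 32851 promoter windows. The full element TGACGTCA was in none of the 7 and in 1.79% of all windows, and the AP-1 site TGANTCA was in none of the 7 and in 7.81% of all windows. The EGR site was in 1 of the 7 (Fosb) and in 5.55% of all windows, and TATAAA was in 2 (Fos and Junb) and in 13.6%. The CArG box, to which SRF binds, was in 1 (Egr2, which has 5 annotated starts) and in 1.63% of all windows. The full element contains the half-site, and no 2 of the matches in the windows shown overlap. These matches describe the letters only.

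Gene counts per library ran from 25226357 to 28895657. Noc2l itself stood at 85.4 and 86.9 CPM (counts scaled to library size, where 1 CPM is 26.0 to 31.1 reads) in E17.5 knockout libraries, against 106 and 121 CPM in E17.5 controls, with 95.6 and 91.6 CPM in E15.5 knockout libraries, against 107 and 97.4 CPM in E15.5 controls. Its log2 fold change was -0.39 ± 0.10 at E17.5 (edgeR adjusted p = 0.0062) and -0.12 ± 0.10 at E15.5 (edgeR adjusted p = 0.33). The counts cover whole transcripts, so this level does not check the genotype labels. Knockout libraries held less RNA of keratinocytes and more of other skin cells. All 8 basal and all 7 suprabasal keratinocyte markers fell at both stages, and their summed levels were 1140 to 1179 and 697 to 1049 CPM in E17.5 knockouts, against 7549 to 7576 and 41160 to 54586 CPM in E17.5 controls. At E15.5 the sums were 1958 to 2027 and 4452 to 4832 CPM in knockouts, against 7006 to 7466 and 84337 to 88886 CPM in controls. All 8 dermal fibroblast markers rose at both stages, to sums of 93520 to 99222 CPM in E17.5 knockouts, against 25920 to 29984 CPM in controls, and 73954 to 91315 CPM in E15.5 knockouts, against 29775 to 31735 CPM in controls. Likewise all 5 endothelial, all 6 measured myeloid and all 5 skeletal muscle markers rose at both stages, as did 6 of 7 erythroid markers at E17.5 and 7 of 7 at E15.5. Of 5 periderm markers 4 rose and 1 fell at both stages, and of 5 melanocyte markers 2 rose at E17.5 and 5 at E15.5. No marker of these lists was at 0 in any library. Fewer cells of a type and less RNA per cell cannot be told apart in these bulk samples, and the part of this shift in the results below was not tested.

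The 10 genes did not move as a block. At E17.5, Fosb, Atf3 and Ier3 rose and Egr3 fell, while Fos, Jun, Junb, Egr1, Egr2 and Ier2 did not pass the test. At E15.5, Fosb and Atf3 rose and Egr3, Junb and Ier2 fell, while Fos, Jun, Egr1, Egr2 and Ier3 did not pass it. A gene was called at an adjusted p under 0.05, the Benjamini-Hochberg value of edgeR's quasi-likelihood test over all genes tested. So 4 of the 10 were called at E17.5 (3 risen, 1 fallen; 3 and 2 with scaling by library totals, where Ier2 fell by 0.64, edgeR adjusted p = 0.015), against 53.5% of all genes (26.7% risen, 26.7% fallen). Of all genes 4371 rose and 4364 fell, and with scaling by library totals, which moved the median log2 fold change of all genes to -0.23, 3295 rose and 6284 fell. At E15.5, 5 of 10 were called (2 risen, 3 fallen), against 45.5% of all genes (23.2% risen, 22.3% fallen), and 3 (2 risen, 1 fallen) without control replicate 2. Both shares are near the background and are no result about the genes as a class. Their median log2 fold change was 0.27 at E17.5 and -0.13 at E15.5, with -0.02 and -0.00 over all genes tested. Only 3 genes, Atf3, Egr3 and Fosb, were called at both stages, each in the same direction at both.

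**Figure D1:**
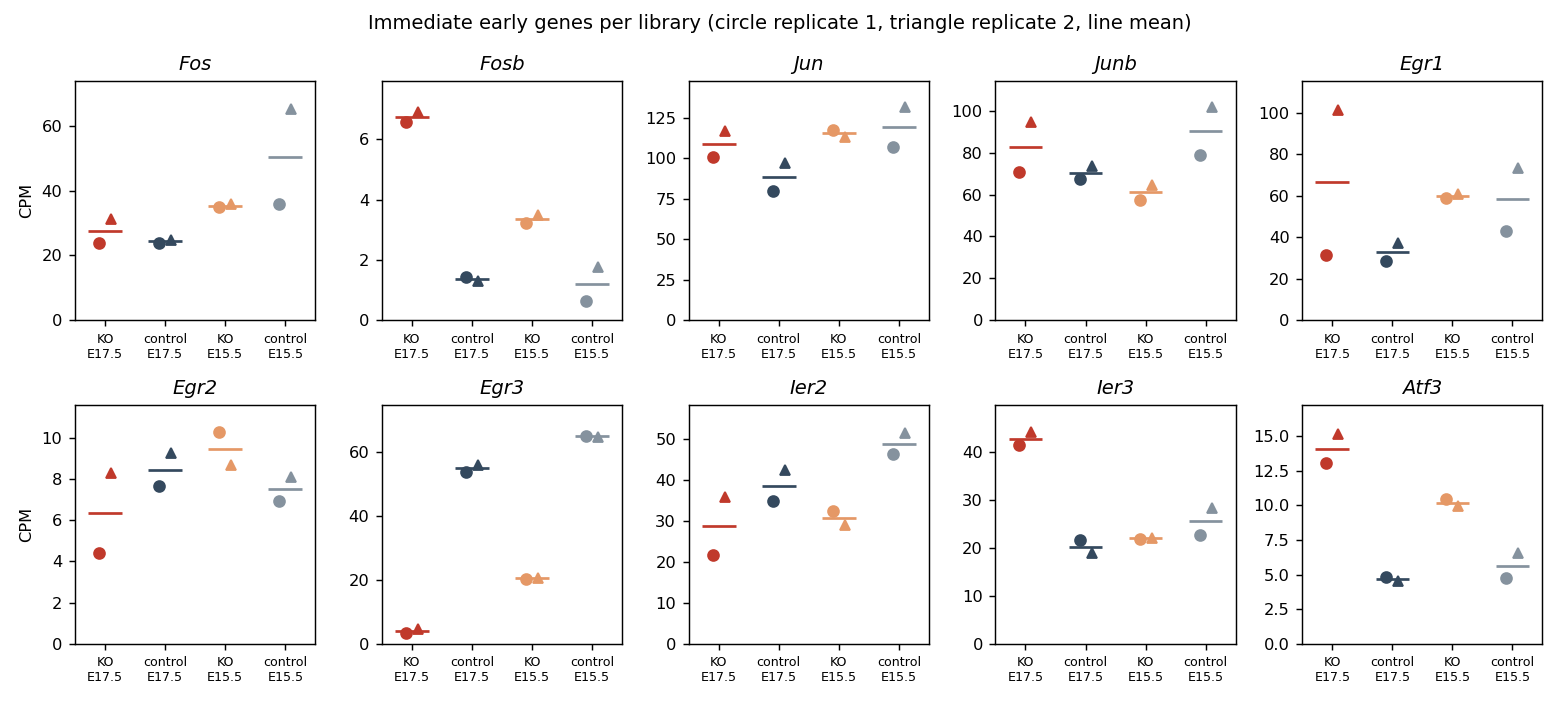
Level of each of the 10 genes in CPM (vertical axes, from 0) in the 8 libraries, with circles for replicate 1, triangles for replicate 2 and lines for group means. Egr3 was lowest in E17.5 knockout libraries (3.47 and 4.46 CPM) and highest in E15.5 controls (64.8 and 64.6 CPM), while Egr1 spread between 31.6 and 101 CPM within the E17.5 knockouts.

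Egr3, on chromosome 14 from 70077317 to 70082613 (GRCm38.p6), moved furthest. It encodes a zinc finger factor that growth factor signals induce. Its level was 3.47 and 4.46 CPM in E17.5 knockout libraries, against 53.7 and 55.9 CPM in E17.5 controls. The knockout libraries lay far below the controls with no overlap, and the means differed 13.8-fold. At E15.5 it was 20.4 and 20.7 CPM in knockout libraries, against 64.8 and 64.6 CPM in controls, again without overlap, a 3.16-fold difference of means. The libraries within each E15.5 group lay close together, while the E17.5 knockout libraries differed 1.28-fold. Egr3 fell by 3.79 ± 0.14 on the log2 scale at E17.5 (SE, n = 2 against 2, edgeR adjusted p = 4.1e-09) and by 1.66 ± 0.12 at E15.5 (edgeR adjusted p = 9.7e-07). The fall went in the direction of the basal and suprabasal keratinocyte markers, all 8 and all 7 of which fell at both stages; their part in it was not tested.

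Neither Egr1 nor Egr2 passed the test at either stage. Egr1, the best studied member of the family and a rapid target of SRF, was at 31.6 and 101 CPM in E17.5 knockout libraries, against 28.5 and 36.95 CPM in E17.5 controls. One knockout library lay among the controls and the other far above them. Its log2 fold change of 1.02 ± 0.41 missed the threshold (edgeR adjusted p = 0.053; 0.046 with upper-quartile scaling and 0.025 without the filter on low counts), and it hung on single knockout libraries: it was 1.61 (edgeR adjusted p = 0.00029) without knockout replicate 1 and -0.071 (edgeR adjusted p = 0.84) without knockout replicate 2. At E15.5 Egr1 was at 59.0 and 60.8 CPM in knockout libraries, between the 43.1 and 73.5 CPM of the controls, with a log2 fold change of 0.04 ± 0.40 (edgeR adjusted p = 0.95).

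Egr2, known for its role in myelinating Schwann cells and the hindbrain, was the lowest of the 3 per kilobase of exon in every group but the E17.5 knockouts. It was at 4.42 and 8.30 CPM in E17.5 knockout libraries, against 7.65 and 9.25 CPM in E17.5 controls, and the ranges overlapped. At E15.5 it was at 10.3 and 8.65 CPM in knockout libraries, against 6.95 and 8.10 CPM in controls, which lay just below. Neither difference passed the test, at log2 fold changes of -0.41 ± 0.26 at E17.5 (edgeR adjusted p = 0.21) and 0.33 ± 0.26 at E15.5 (edgeR adjusted p = 0.33). The E17.5 value was -0.95 (edgeR adjusted p = 0.0097) without knockout replicate 2 and -0.047 (edgeR adjusted p = 0.89) without knockout replicate 1. Egr4, the fourth gene of the family, had at most 6 counts in a library and was not tested.

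To compare the EGR genes with each other, CPM was divided by exon length. On this scale Egr3 made up 3.03% to 6.88% of the summed EGR RNA in E17.5 knockout libraries, against 48.1% to 53.2% in E17.5 controls. At E15.5 it made up 18.4% to 18.6% in knockout libraries, against 37.8% to 49.8% in controls. Egr1 filled most of the rest, at 81.3% to 89.2% in E17.5 knockouts, against 36.7% to 41.3% in controls, and at 69.2% to 71.0% in E15.5 knockouts, against 43.1% to 55.8% in controls. The summed level itself was 12.8 and 37.4 CPM per kilobase in E17.5 knockouts and 25.6 and 29.5 CPM per kilobase in E17.5 controls, which lay between them. These shares were not tested.

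**Figure D2:**
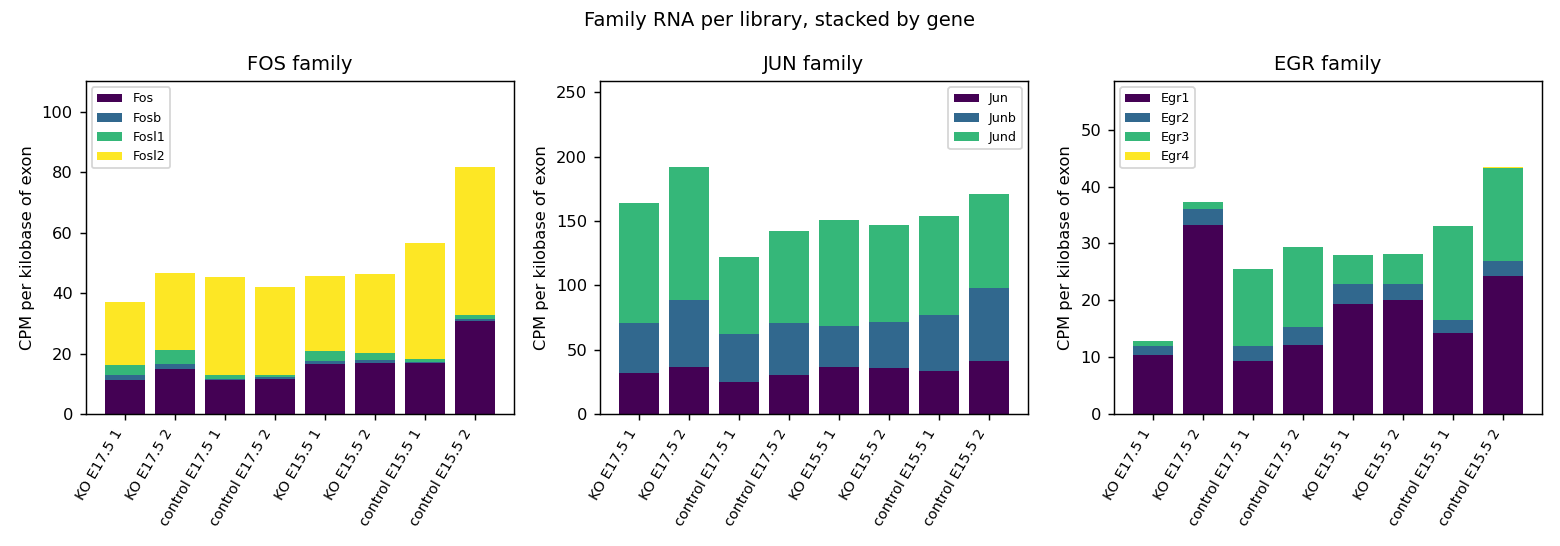
Stacked bars of CPM per kilobase of exon (vertical axes, from 0) for the FOS, JUN and EGR genes in each of the 8 libraries, knockout before control and E17.5 before E15.5. The Egr3 part of the EGR bar is 3.03% to 6.88% in E17.5 knockouts and 48.1% to 53.2% in E17.5 controls, and Fosb is at most 4.70% of any FOS bar.

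Of the 2 corepressors of EGR proteins, Nab1 fell at both stages and Nab2 passed the test at E17.5 alone. Nab1 was at 50.9 and 56.0 CPM in E17.5 knockout libraries, against 100.03 and 79.7 CPM in controls, and at 52.9 and 59.4 CPM in E15.5 knockout libraries, against 98.2 and 99.4 CPM in controls. Knockout libraries lay below controls at both stages, and Nab1 fell by 0.75 ± 0.12 on the log2 scale at E17.5 (edgeR adjusted p = 0.00033) and by 0.81 ± 0.12 at E15.5 (edgeR adjusted p = 0.00023). Nab2 fell by 0.33 ± 0.13 at E17.5 (edgeR adjusted p = 0.046), a call lost with upper-quartile scaling (-0.29, edgeR adjusted p = 0.080) and in DESeq2 (-0.33, adjusted p = 0.051). At E15.5 its log2 fold change was -0.20 ± 0.13 (edgeR adjusted p = 0.24).

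Among the FOS genes, Fosb rose at both stages, and Fos passed the test at neither. Fosb, on chromosome 7 from 19302696 to 19310118, encodes a FOS protein whose short splice form, known as delta FosB, is long-lived in neurons; the counts do not separate the forms. It was at 6.57 and 6.90 CPM in E17.5 knockout libraries, against 1.41 and 1.28 CPM in E17.5 controls. In knockout libraries of E15.5 it was at 3.22 and 3.48 CPM, against 0.642 and 1.77 CPM in controls. Knockout libraries lay above controls at both stages, and the means were 4.99-fold higher at E17.5 and 2.78-fold higher at E15.5. The log2 fold change was 2.32 ± 0.35 at E17.5 (edgeR adjusted p = 0.00020) and 1.48 ± 0.37 at E15.5 (edgeR adjusted p = 0.0069). The E15.5 value depended on the controls, which had 17 and 46 counts: it was 0.92 (edgeR adjusted p = 0.038) without control replicate 1 and 2.38 (edgeR adjusted p = 0.00073) without control replicate 2.

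Fos, the founding gene of the class, lies on chromosome 12 from 85473890 to 85477274. It was at 23.7 and 31.2 CPM in E17.5 knockout libraries, against 24.0 and 24.8 CPM in E17.5 controls, and the ranges overlapped. At E15.5 it was at 34.98 and 35.8 CPM in knockout libraries, just below the 35.9 and far below the 65.2 CPM of the controls. The log2 fold change was 0.17 ± 0.23 at E17.5 (edgeR adjusted p = 0.55) and -0.51 ± 0.22 at E15.5 (edgeR adjusted p = 0.082). The E15.5 value rested on the controls: it was -0.88 (edgeR adjusted p = 0.0023) without control replicate 1 and -0.023 (edgeR adjusted p = 0.94) without control replicate 2. With all libraries it passed in DESeq2 (-0.52, adjusted p = 0.042) and without the filter on low counts (-0.52, edgeR adjusted p = 0.049).

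The remaining FOS genes moved in opposite directions. Fosl1, which encodes FRA1, stood at 5.77 and 8.37 CPM in E17.5 knockout libraries, against 1.92 and 1.38 CPM in controls. At E15.5 it stood at 6.33 and 4.54 CPM in knockout libraries, against 2.00 and 2.34 CPM in controls. It rose at both stages with no overlap, by 2.10 ± 0.29 on the log2 scale at E17.5 (edgeR adjusted p = 0.00010) and 1.32 ± 0.29 at E15.5 (edgeR adjusted p = 0.0031). Fosl2, which encodes FRA2, averaged 152 ± 22.1 CPM in E17.5 knockouts and 202 ± 15.04 CPM in E17.5 controls, and 167 ± 5.50 CPM in E15.5 knockouts and 286 ± 48.6 CPM in E15.5 controls (SD, n = 2 each). It fell by 0.41 ± 0.14 at E17.5 (edgeR adjusted p = 0.025) and by 0.77 ± 0.14 at E15.5 (edgeR adjusted p = 0.00081).

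Per kilobase of exon, Fosl2 held most of the FOS RNA in every library, at 54.8% to 56.4% in E17.5 knockouts and 69.6% to 71.8% in E17.5 controls, and at 54.5% to 56.3% in E15.5 knockouts and 60.03% to 67.8% in E15.5 controls. Fosb, though it rose, stayed a small part of the family. Its share was 3.90% to 4.70% in E17.5 knockouts and 0.805% to 0.824% in E17.5 controls, and 1.86% to 1.98% in E15.5 knockouts and 0.299% to 0.572% in E15.5 controls. Fosl1 held 8.38% to 9.61% in E17.5 knockouts and 1.76% to 2.27% in E17.5 controls, and 5.23% to 7.41% in E15.5 knockouts and 1.54% to 1.89% in E15.5 controls.

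The products of the JUN genes pair with FOS proteins and with themselves. Junb fell at E15.5 and Jund rose at E17.5, while Jun passed the test at neither stage. Jun, on chromosome 4 from 95049036 to 95052222, was at 101 and 117 CPM in E17.5 knockout libraries, against 79.7 and 96.9 CPM in E17.5 controls, and at 118 and 113 CPM in E15.5 knockout libraries, against 107 and 132 CPM in E15.5 controls. Both knockout libraries lay just above the controls at E17.5 and between them at E15.5. Neither log2 fold change passed the test, at 0.30 ± 0.13 at E17.5 (edgeR adjusted p = 0.072) and -0.05 ± 0.13 at E15.5 (edgeR adjusted p = 0.79). The E17.5 value was 0.45 (edgeR adjusted p = 0.031) without control replicate 2 and 0.16 (edgeR adjusted p = 0.38) without control replicate 1, and with upper-quartile scaling it was 0.34 (edgeR adjusted p = 0.0498). An antisense gene, Junos, overlaps Jun, and the strand setting of the counting is not given in the sources used here, so reads of the pair cannot be told apart.

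Junb, which restrains keratinocyte proliferation and inflammation in adult skin, lies on chromosome 8 from 84976909 to 84978748. It was at 70.7 and 94.8 CPM in E17.5 knockout libraries, against 67.3 and 73.6 CPM in E17.5 controls, and the ranges overlapped. At E15.5 it was at 57.5 and 64.7 CPM in knockout libraries, against 79.2 and 102 CPM in controls, which lay above them. Junb fell by 0.57 ± 0.15 on the log2 scale at E15.5 (edgeR adjusted p = 0.011), and its log2 fold change at E17.5 was 0.23 ± 0.15 (edgeR adjusted p = 0.22). With control replicate 2 left out this E15.5 fall was no longer called (-0.38, edgeR adjusted p = 0.12), nor with knockout replicate 1 left out (-0.49, edgeR adjusted p = 0.071).

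Jund, the JUN gene that is expressed in most resting cells, averaged 163 ± 11.2 CPM in E17.5 knockouts and 109 ± 13.0 CPM in E17.5 controls (SD, n = 2 each), and it rose by 0.58 ± 0.11 on the log2 scale (edgeR adjusted p = 0.00089). At E15.5 its log2 fold change was 0.07 ± 0.11 (edgeR adjusted p = 0.63). It held about as much RNA per kilobase as Jun and Junb together, at 53.6% to 56.9% of the JUN sum in E17.5 knockouts and 49.2% to 50.04% in E17.5 controls, and at 51.4% to 54.4% in E15.5 knockouts and 42.8% to 49.8% in E15.5 controls.

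Atf3, on chromosome 1 from 191170296 to 191183333, rose at both stages. It was at 13.0 and 15.2 CPM in E17.5 knockout libraries, against 4.82 and 4.53 CPM in E17.5 controls. In knockout libraries of E15.5 it was at 10.5 and 9.92 CPM, against 4.72 and 6.53 CPM in controls. The groups did not overlap at either stage, and the means were 3.02-fold higher at E17.5 and 1.81-fold higher at E15.5. The log2 fold change was 1.59 ± 0.19 at E17.5 (edgeR adjusted p = 3.4e-05) and 0.86 ± 0.19 at E15.5 (edgeR adjusted p = 0.0034).

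Ier3, which encodes a small protein tied to survival and ERK signalling, rose at E17.5 but was not called at E15.5. The gene lies on chromosome 17 from 35821713 to 35822911. It was at 41.5 and 44.0 CPM in E17.5 knockout libraries, against 21.6 and 18.9 CPM in E17.5 controls, with no overlap and means 2.11-fold higher. At E15.5 it was at 21.8 and 22.1 CPM in knockout libraries, just below the 22.7 and 28.4 CPM of the controls. The log2 fold change was 1.08 ± 0.13 at E17.5 (edgeR adjusted p = 4.4e-05) and -0.22 ± 0.13 at E15.5 (edgeR adjusted p = 0.22).

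Ier2, which encodes a nuclear protein induced by growth factors, lies on chromosome 8 from 84661331 to 84662852, 314057 bp from Junb on the same strand. It was at 21.6 and 35.9 CPM in E17.5 knockout libraries, against 34.8 and 42.4 CPM in E17.5 controls, where the ranges overlapped, and at 32.5 and 29.0 CPM in E15.5 knockout libraries, against 46.3 and 51.6 CPM in E15.5 controls, where they did not. It fell by 0.67 ± 0.20 on the log2 scale at E15.5 (edgeR adjusted p = 0.016), and its log2 fold change at E17.5 was -0.43 ± 0.20 (edgeR adjusted p = 0.091). The E15.5 call was lost without control replicate 2 (-0.59, edgeR adjusted p = 0.094) and without knockout replicate 2 (-0.59, edgeR adjusted p = 0.089). The E17.5 value was -0.86 (edgeR adjusted p = 0.0018) without knockout replicate 2 and -0.13 (edgeR adjusted p = 0.56) without knockout replicate 1.

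**Figure D3:**
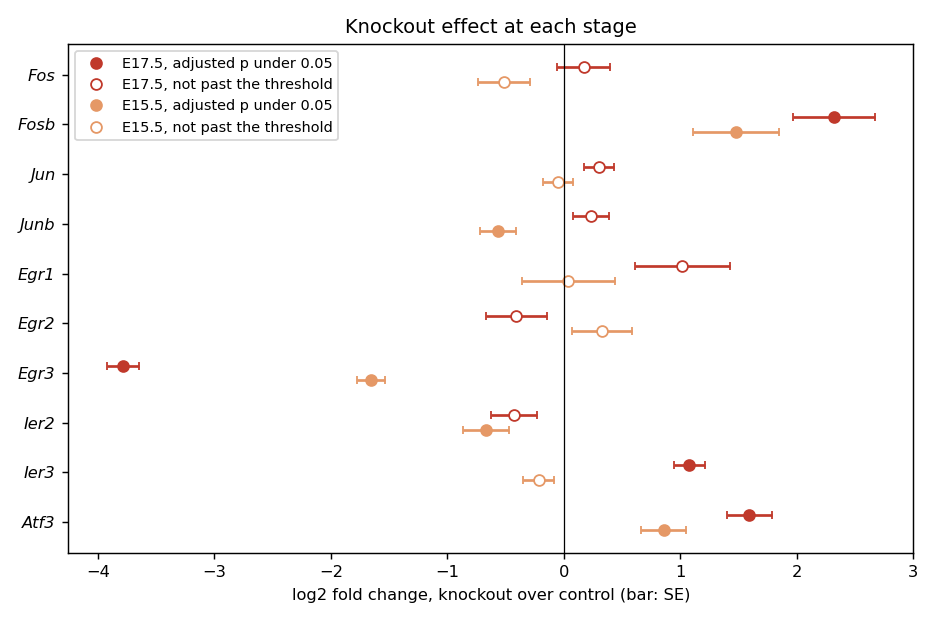
Log2 fold change of knockout over control (horizontal axis) for the 10 genes at E17.5 and E15.5, with bars for the SE and filled points for an adjusted p under 0.05 in edgeR. Egr3 lies at -3.79 and -1.66, Fosb at 2.32 and 1.48 and Atf3 at 1.59 and 0.86, while Ier3 lies at 1.08 at E17.5 and -0.22 at E15.5.

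The knockout and control libraries did not overlap for 5 of the 10 genes at E17.5, against 78.1% of all genes tested, and for 8 of 10 at E15.5, against 74.4%.

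The difference between the knockout effects at the stages was tested directly, as the log2 fold change at E17.5 minus that at E15.5. It passed for 2 of the 10 genes (1 higher, 1 lower), against 4.35% of all genes (1.88% higher, 2.47% lower). Over all genes that is 308 higher and 403 lower, and 142 and 655 with scaling by library totals, which moved the median to -0.21. The fall of Egr3 was deeper at E17.5, by -2.13 ± 0.18 (edgeR adjusted p = 0.00012). Ier3 moved upwards at E17.5 relative to E15.5, by 1.29 ± 0.19 (edgeR adjusted p = 0.0029). Of the others Junb came nearest, at 0.80 ± 0.22 (edgeR adjusted p = 0.067), and it passed in DESeq2 (0.81, adjusted p = 0.011) and without the filter on low counts (0.78, edgeR adjusted p = 0.035). Without E17.5 knockout replicate 1 Junb was at 0.98 (edgeR adjusted p = 0.031), and without replicate 2 at 0.56 (edgeR adjusted p = 0.20). Egr1 was at 0.98 ± 0.57 (edgeR adjusted p = 0.42), and the same omissions took it to 1.57 (edgeR adjusted p = 0.025) and -0.11 (edgeR adjusted p = 0.92). Fos was at 0.69 ± 0.32 (edgeR adjusted p = 0.29), and at 1.05 (edgeR adjusted p = 0.033) without E15.5 control replicate 1 but 0.19 (edgeR adjusted p = 0.77) without E15.5 control replicate 2. For Fosb the difference of 0.84 ± 0.51 (edgeR adjusted p = 0.45) and for Atf3 that of 0.73 ± 0.27 (edgeR adjusted p = 0.17) did not pass, so the larger values at E17.5 are not shown to differ from those at E15.5. The median difference was 0.71 over the 10 genes and 0.01 over all genes tested. E17.5 knockouts and E15.5 controls both enter this difference with a positive sign. Replicate 2 was higher than replicate 1 for 10 and 9 of the 10 genes in these groups, and the part of these gaps in the median was not tested.

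Each genotype was then compared between the stages. These comparisons share their libraries with the knockout comparisons above and are given for their own values. In control epidermis 1 of the 10 genes was called (0 risen, 1 fallen), against 10.9% of all genes (3.15% risen, 7.7% fallen). Of all genes 515 rose and 1259 fell, against 1486 and 762 with scaling by library totals (median 0.19) and 686 and 979 with upper-quartile scaling. At an unadjusted p under 0.05 in edgeR, 0 of the 10 were higher and 4 lower, and DESeq2 called 0 risen and 2 fallen, and limma-voom 0 and 1. The other gene in DESeq2 was Jun (-0.44, adjusted p = 0.024), which also passed without the filter (-0.42, edgeR adjusted p = 0.045), and Egr1 passed in a fit of these groups alone (-0.81, edgeR adjusted p = 0.023). Fos was at 24.0 and 24.8 CPM in E17.5 controls, against 35.9 and 65.2 CPM in E15.5 controls, and it fell by 1.05 ± 0.23 on the log2 scale (edgeR adjusted p = 0.012). This fall was no longer called with E15.5 control replicate 2 left out (-0.56, edgeR adjusted p = 0.11), with E17.5 control replicate 1 left out (-1.03, edgeR adjusted p = 0.052) and with E17.5 control replicate 2 left out (-1.07, edgeR adjusted p = 0.083). E17.5 controls lay wholly below E15.5 controls for 7 of the 10 genes (Fos, Jun, Junb, Egr1, Egr3, Ier2 and Ier3). They lay wholly above for none. Taking both directions together, the groups did not overlap for 50.7% of all genes. The scaling factors used here were 0.977 and 0.964 in E15.5 controls and 1.09 and 1.12 in E17.5 controls. The count of 7 depends on this scaling. The median log2 fold change was -0.34 over the 10 genes and -0.00 over all genes.

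In knockout epidermis 2 of the 10 genes were called between the stages (1 risen, 1 fallen), against 13.1% of all genes (6.19% risen, 6.91% fallen). Egr3 was 5.17-fold lower at E17.5, at 3.47 and 4.46 CPM, against 20.4 and 20.7 CPM at E15.5, and fell by 2.37 ± 0.14 on the log2 scale (edgeR adjusted p = 9.7e-07). In control epidermis its log2 fold change between the stages was -0.24 ± 0.11 (edgeR adjusted p = 0.24). Ier3 was 1.94-fold higher at E17.5, at 41.5 and 44.0 CPM, against 21.8 and 22.1 CPM at E15.5, and rose by 0.96 ± 0.13 (edgeR adjusted p = 0.00054). In control epidermis its log2 fold change was -0.33 ± 0.13 (edgeR adjusted p = 0.16). Fosb, at 6.57 and 6.90 CPM in E17.5 knockouts, against 3.22 and 3.48 CPM in E15.5 knockouts, missed the threshold (1.01 ± 0.33, edgeR adjusted p = 0.068).

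Levels of different genes were set in order per kilobase of exon. In E17.5 knockouts Junb stood first at 45.7 ± 9.41 CPM per kilobase, followed by Ier3 at 37.8 ± 1.59 and Jun at 34.1 ± 3.497 (SD, n = 2 each). Egr1 (21.9 ± 16.2), Ier2 (18.9 ± 6.62) and Fos (13.0 ± 2.51) came next, and at the low end were Atf3 (7.11 ± 0.759), Egr2 (2.14 ± 0.926), Fosb (1.78 ± 0.0613) and Egr3 (1.01 ± 0.177). In this group Jun overlapped Egr1, Egr1 overlapped Ier2, Ier2 overlapped Fos and Egr2 overlapped Fosb. In E17.5 controls the order was Junb (38.9 ± 2.44), Jun (27.7 ± 3.82), Ier2 (25.4 ± 3.52), Ier3 (17.9 ± 1.73), Egr3 (13.9 ± 0.392), Fos (11.6 ± 0.266), Egr1 (10.8 ± 1.96), Egr2 (2.85 ± 0.381), Atf3 (2.36 ± 0.105) and Fosb (0.357 ± 0.0242). There only Jun and Ier2, and Fos and Egr1, overlapped as neighbours. Egr3 was thus the fifth gene in E17.5 controls and the last of the 10 in E17.5 knockouts.

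At E15.5 the order in knockouts ran from Jun (36.2 ± 0.954 CPM per kilobase) and Junb (33.8 ± 2.79), which overlapped, through Ier2 (20.2 ± 1.61), Egr1 (19.7 ± 0.426) and Ier3 (19.4 ± 0.182), which also overlapped, to Fos (16.8 ± 0.269). Egr3 (5.20 ± 0.0528) and Atf3 (5.14 ± 0.197) were alike within their spread, and Egr2 (3.19 ± 0.381) and Fosb (0.886 ± 0.0491) closed the order. In E15.5 controls Junb (50.04 ± 8.83) came first, and Jun (37.4 ± 5.49), Ier2 (32.2 ± 2.48), Fos (24.0 ± 9.82), Ier3 (22.6 ± 3.56), Egr1 (19.2 ± 7.07) and Egr3 (16.4 ± 0.0238) followed, each of them from Jun to Egr1 overlapping the one after it. Atf3 (2.83 ± 0.645) and Egr2 (2.54 ± 0.276) overlapped too, and Fosb (0.318 ± 0.210) was again last.

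Part of the variation lay within groups, and in the E17.5 knockouts and E15.5 controls it was shared among the genes. In the E17.5 knockouts replicate 2 had more of all 10 genes than replicate 1, while 48.7% of all genes tested were higher in replicate 2. The widest gaps were those of Egr1 (3.20-fold), Egr2 (1.88-fold) and Ier2 (1.66-fold), and on log2(CPM + 0.5) the gap of Egr1 was wider than that of 99.9% of genes. In the E15.5 controls replicate 2 was higher for 9 of 10 genes, against 52.0% of all genes, with the widest gaps for Fosb (2.75-fold), Fos (1.82-fold) and Egr1 (1.70-fold). The exception was Egr3, whose levels there were 64.8 and 64.6 CPM. Replicate 2 was higher for 7 of 10 genes in the E17.5 controls and 6 of 10 in the E15.5 knockouts, against 50.9% and 49.8% of all genes.

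The median size of the gap, on log2(CPM + 0.5), was 0.35 for the 10 genes and 0.14 for all genes in the E17.5 knockouts. It was 0.34 and 0.15 in the E15.5 controls. In the other groups the median gap of the genes was no wider than that of all genes, at 0.16 and 0.17 in E17.5 controls and 0.06 and 0.15 in E15.5 knockouts. The other immediate early factors followed, with 12 of 14 higher in replicate 2 in the E17.5 knockouts and 12 of 14 in the E15.5 controls, and so did 23 of 27 and 19 of 27 serum-response and feedback genes. In the E17.5 controls and E15.5 knockouts the counts were 7 and 8 of 14 factors, and 16 and 16 of 27 serum-response and feedback genes. In the E17.5 knockouts, replicate 2 also had more of all 5 periderm markers and 7 of 8 dermal fibroblast markers, and less of 5 of 7 suprabasal, 6 of 8 basal and 4 of 5 skeletal muscle markers. Of the rest, 1 of 5 melanocyte, 2 of 6 myeloid, 3 of 7 erythroid and 3 of 5 endothelial markers were higher in it. In the E15.5 controls replicate 2 had less of all 5 skeletal muscle and all 6 myeloid markers and of 10 of 12 heat shock genes. Only 1 of 7 erythroid and 1 of 5 endothelial markers were higher in it. So were 4 of 5 periderm, 6 of 8 dermal fibroblast, 4 of 5 melanocyte, 3 of 8 basal and 4 of 7 suprabasal markers. Their part in the gaps was not tested.

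**Figure D4:**
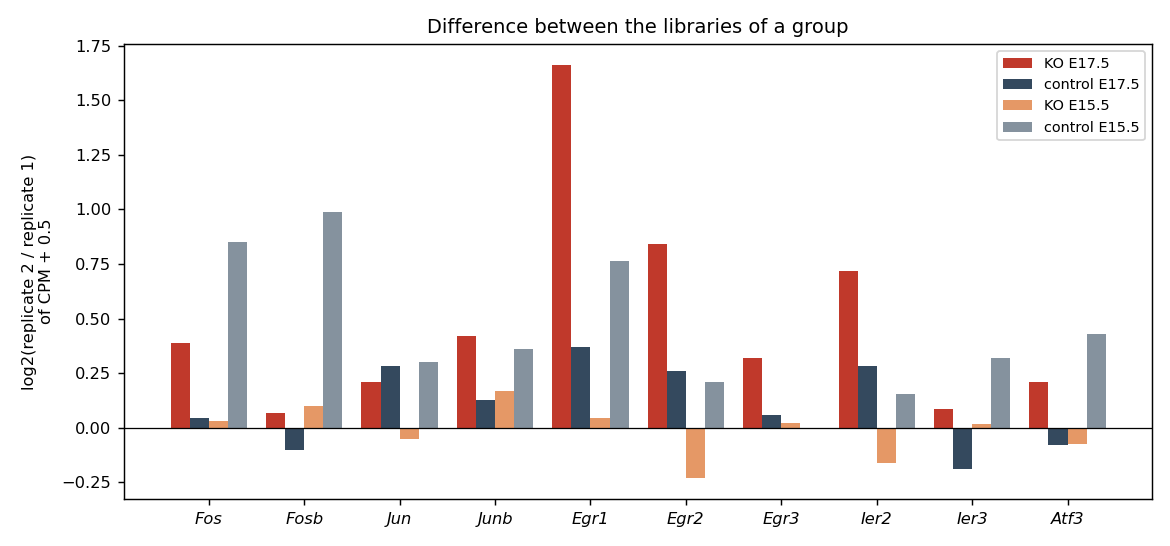
Log2 ratio of replicate 2 to replicate 1 of the same group, on CPM + 0.5 (vertical axis), for the 10 genes in each of the 4 groups. All 10 bars are above 0 in the E17.5 knockouts and 9 of 10 in the E15.5 controls, and Egr1 in the E17.5 knockouts is the tallest at 1.66.

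Genes around the 10 were described by lists of related genes, whose counts stand against 26.7% risen and 26.7% fallen of all genes at E17.5 and 23.2% and 22.3% at E15.5. Of 14 tested factors also known as immediate early, 7 rose and 4 fell at E17.5, and 3 rose and 3 fell at E15.5, with medians of 0.59 and 0.17 on the log2 scale, against -0.02 and -0.00 over all genes. The E15.5 shares are near the background. Klf4, a factor of late keratinocyte differentiation, averaged 127 ± 1.61 CPM in E17.5 knockouts and 337 ± 60.7 CPM in E17.5 controls, and fell by 1.40 ± 0.13 (edgeR adjusted p = 4.8e-06). It averaged 219 ± 8.55 CPM in E15.5 knockouts and 545 ± 35.1 CPM in E15.5 controls, and fell by 1.32 ± 0.13 (edgeR adjusted p = 1.1e-05). Klf2, a factor of endothelium and leukocytes, rose by 1.61 ± 0.17 at E17.5 (edgeR adjusted p = 1.4e-05) and by 0.84 ± 0.17 at E15.5 (edgeR adjusted p = 0.0019). All 5 endothelial markers rose at both stages as well, and their part was not tested. Ier5, a relative of Ier2, fell by 0.49 ± 0.14 at E17.5 (edgeR adjusted p = 0.011) and by 0.70 ± 0.14 at E15.5 (edgeR adjusted p = 0.0015).

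Of 27 serum-response and feedback genes, 14 rose and 2 fell at E17.5, and 11 rose and 6 fell at E15.5, with medians of 0.44 and 0.16; the share fallen at E15.5 is that of all genes. With scaling by library totals 10 rose and 4 fell at E17.5. Dusp5, a phosphatase that switches off ERK, averaged 13.1 ± 1.47 CPM in E17.5 knockouts and 3.05 ± 0.357 CPM in E17.5 controls, and rose by 2.11 ± 0.22 (edgeR adjusted p = 1.0e-05). At E15.5 its log2 fold change was 0.16 ± 0.21 (edgeR adjusted p = 0.55), and the difference between the stages passed the test at 1.95 ± 0.30 (edgeR adjusted p = 0.0039). The matricellular genes Ccn1 and Ccn2 and the synaptic gene Arc rose at both stages. Ccn1 rose by 2.16 ± 0.25 at E17.5 (edgeR adjusted p = 2.8e-05), and at E15.5 Ccn2 rose by 1.08 ± 0.22 (edgeR adjusted p = 0.0020) and Arc by 1.95 ± 0.32 (edgeR adjusted p = 0.00048). Nfkbiz, a nuclear regulator of NF-kappaB, rose by 1.503 ± 0.19 at E17.5 (edgeR adjusted p = 5.7e-05) and by 0.62 ± 0.20 at E15.5 (edgeR adjusted p = 0.023). Zfp36l1, which promotes mRNA decay, fell by 0.46 ± 0.11 at E17.5 (edgeR adjusted p = 0.0053) and by 0.82 ± 0.12 at E15.5 (edgeR adjusted p = 0.00015).

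AP-1 partners were split. Of 11 tested, 4 rose and 1 fell at E17.5, and 3 rose and 2 fell at E15.5. With scaling by library totals 3 rose and 3 fell at E17.5. In the pairs of values that follow, E17.5 comes before E15.5. Jdp2, which represses AP-1 as a partner of JUN, rose by 1.31 ± 0.12 and 1.40 ± 0.13 (edgeR adjusted p = 5.8e-06 and 5.4e-06), and Batf, a leukocyte AP-1 protein, by 2.14 ± 0.23 and 1.21 ± 0.22 (edgeR adjusted p = 1.3e-05 and 0.00098). All 6 measured myeloid markers rose at both stages beside Batf; their part was not tested.

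Upstream of the class, 6 of 21 kinases and factors rose and 4 fell at E17.5, and 4 rose and 4 fell at E15.5, in all no larger a share than the 53.5% and 45.5% of all genes called. With scaling by library totals 1 rose and 7 fell at E17.5. Elk3, a ternary complex factor that is high in endothelium, rose by 0.91 ± 0.09 and 0.84 ± 0.09 (edgeR adjusted p = 8.3e-06 and 2.2e-05). Map2k4, which activates the JUN kinases, fell by 0.96 ± 0.12 and 1.07 ± 0.12 (edgeR adjusted p = 4.3e-05 and 2.6e-05). Srf rose by 0.45 ± 0.09 at E17.5 (edgeR adjusted p = 0.0016), and its E15.5 value of 0.23 ± 0.09 did not pass (edgeR adjusted p = 0.064). Mapk9, which encodes JNK2, rose by 0.37 ± 0.10 and 0.45 ± 0.10 (edgeR adjusted p = 0.0076 and 0.0032).

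Of 14 cytoskeletal targets of SRF, 9 rose and 0 fell at E17.5, and 10 rose and 0 fell at E15.5, against 26.7% and 23.2% of all genes risen. At an unadjusted p under 0.05 in edgeR, 0 were lower at E17.5 and 1 at E15.5, and DESeq2 and limma-voom called 0 lower at both stages. With scaling by library totals 5 rose and 1 fell at E17.5. Several genes of this list are also smooth muscle or fibroblast genes. All 8 dermal fibroblast markers rose beside the list at both stages, and their part was not tested. Acta2, smooth muscle actin, rose by 1.14 ± 0.10 and 0.82 ± 0.10 (edgeR adjusted p = 4.2e-06 and 7.2e-05). Tagln, an actin-binding protein of the same cells, rose by 0.84 ± 0.13 and 1.30 ± 0.14 (edgeR adjusted p = 0.00026 and 1.6e-05). Tpm1 rose by 1.05 ± 0.15 and 0.61 ± 0.14 (edgeR adjusted p = 0.00010 and 0.0051). Cald1 rose by 0.38 ± 0.10 and 0.72 ± 0.10 (edgeR adjusted p = 0.0088 and 0.00018).

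Heat shock genes, whose RNA also responds quickly to stress, were called no more often than other genes. Of 12, 5 fell and 0 rose at E17.5, and 3 fell and 0 rose at E15.5, against 53.5% and 45.5% of all genes called and 26.7% and 22.3% fallen. At an unadjusted p under 0.05 in edgeR, 0 were higher at E17.5 and 1 at E15.5, and DESeq2 and limma-voom called 0 higher at both stages; with upper-quartile scaling 1 rose at E15.5, and with library totals 8 fell at E17.5. Hspa1b averaged 25.5 ± 2.76 CPM in E17.5 knockouts and 103 CPM in both E17.5 controls, and fell by 2.01 ± 0.15 (edgeR adjusted p = 7.3e-07). It averaged 55.3 ± 5.81 CPM in E15.5 knockouts and 211 ± 44.1 CPM in E15.5 controls, and fell by 1.93 ± 0.14 (edgeR adjusted p = 1.3e-06). Hspa1a, a near-identical copy whose reads the counting could split, fell by 1.24 ± 0.16 and 1.57 ± 0.16 (edgeR adjusted p = 7.1e-05 and 1.5e-05), and Dnajb1 fell by 0.75 ± 0.13 and 0.90 ± 0.13 (edgeR adjusted p = 0.00048 and 0.00017).

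**Figure D5:**
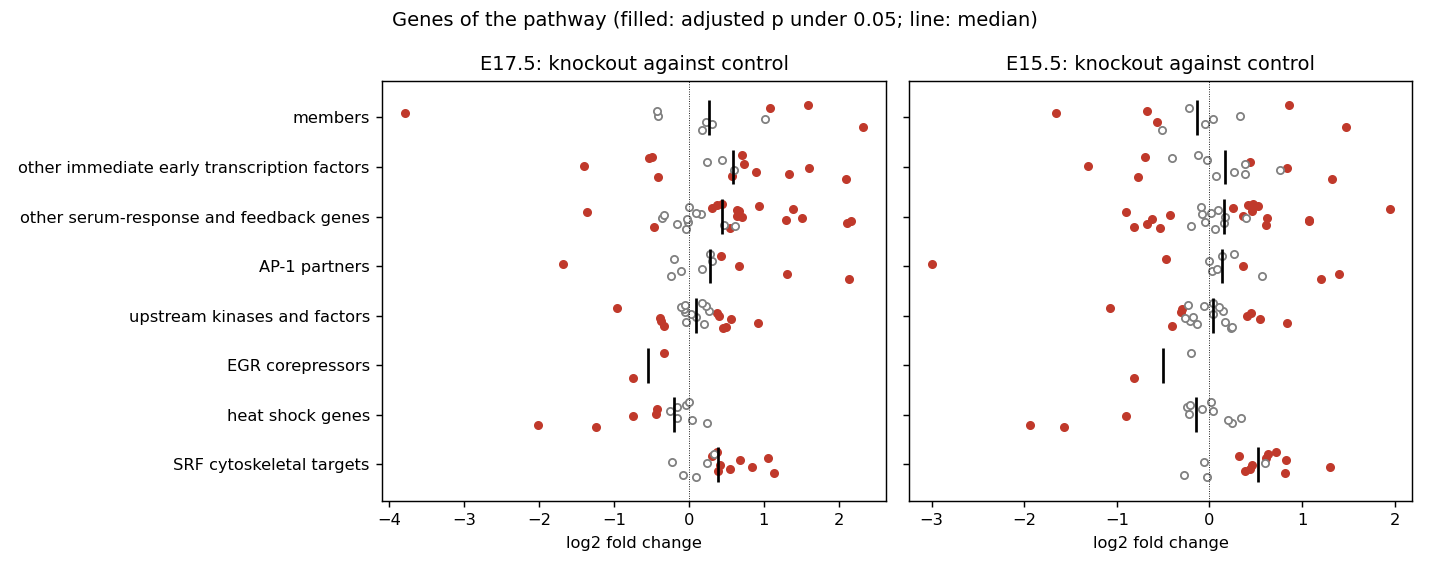
Log2 fold change of knockout over control (horizontal axes) for the 10 genes and 7 lists of related genes at E17.5 and E15.5, with filled points for an adjusted p under 0.05 in edgeR and bars for medians. SRF cytoskeletal targets have filled points on the right alone (9 and 10 of 14; with scaling by library totals 1 fell at E17.5) and heat shock genes on the left alone (5 and 3 of 12; with upper-quartile scaling 1 rose at E15.5), while the 10 genes lie on both sides.

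The genes most like the 10 were found by the correlation, over the 8 libraries, with the mean of the 10 standardised log2 CPM values. They were Rnf39 (Pearson's r = 0.913), Snx21 (r = 0.912) and Tmem230 (r = 0.899). The 8 points share groups and sequencing depth, so this is a description only.

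The 10 genes are compact, as is common in this class. They had 1 to 4 exons, against a median of 8 over the genes tested, of which 26.1% had 1 to 4. The transcripts' genomic span in the GENCODE M21 models, which differ a little from the RefSeq positions given above, was 1240 to 13045 bp (median 3567), against a median of 20264 bp over the genes tested, and their exon length was 1131 to 3940 bp, against a median of 2840 bp. Jun, Junb and Ier2 are single-exon genes.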

How the data were processed

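Epidermal RNA was sequenced in 8 libraries, 2 per group. Per the series design text, the authors aligned reads to mm10 with TopHat (version 2 per the submitters' processing notes), counted them with HOMER and tested them with edgeR. Not given in the sources used here are the version of HOMER, its strand setting and its handling of multiply matching reads. The authors deposited raw counts per RefSeq transcript, without normalization. Joined tables of the same series hold 8 columns without names and were not used.

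Of 30521 transcripts, 29908 were named from the RefSeq table of GRCm38.p6 and 182 more from GENCODE M21; the 431 unnamed ones held 2.08% of counts and were left out. A gene was represented by its transcript with the largest total. The 16342 genes kept by filterByExpr were tested on these counts with edgeR 4.0.16 (R 4.3.3), using trimmed mean of M values (TMM) scaling and 1 mean per group over all 8 libraries, which share the estimate of the spread. The test was the quasi-likelihood F test with Benjamini-Hochberg adjustment over all genes and a threshold of 0.05. SEs were taken as the size of the log2 fold change over the root of the F statistic. CPM values use TMM-scaled totals, at which 1 CPM is 26.0 to 31.1 reads. Values per kilobase divide CPM by the exon length of the transcript. Exact permutation of 2 against 2 libraries reaches p = 0.333 at best and was left out.

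The 10 genes and all lists were chosen with earlier results of these data known. The named genes are the 10, up to 3 called genes of each list with the smallest adjusted p per knockout comparison, Fosl1, Fosl2, Jund, Egr4, Nab1 and Nab2, and the 3 genes most like the 10. 1 gene that this rule names is not reported here. Atf7 and Cd68 were listed but had no row under those names. The fits were tested on simulated data. Alternatives were other scalings, other filters, the sum of transcripts, DESeq2 1.42.0, limma-voom (limma 3.58.1), only the groups compared, a replicate block, and each library left out in turn.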

Additional observations from a re-analysis of the deposited data

Results flagged for a closer look

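Among the 10 genes, 2 had knockout effects that differed between the stages by a test of the difference itself. For Egr3 the log2 fold change of knockout over control was -3.79 at E17.5 and -1.66 at E15.5, and the difference was -2.13 (edgeR adjusted p = 0.00012). All 8 basal and 7 suprabasal keratinocyte markers fell at both stages, and of these 2 and 4 fell further at E17.5 by the same test, while 3 of 5 melanocyte markers were lower in it; their part in the Egr3 difference was not tested. For Ier3 the log2 fold change was 1.08 at E17.5 and -0.22 at E15.5, and the difference was 1.29 (edgeR adjusted p = 0.0029). In that test 2 of 5 periderm, 3 of 6 myeloid and 2 of 5 skeletal muscle markers were also higher, and their part was not tested. Each difference kept its direction and its call in all 18 alternatives run on it, from -2.34 to -1.98 for Egr3 and from 1.08 to 1.44 for Ier3.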

How the results depend on the processing

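Of 920 alternative values for the 10 genes, 857 kept their direction and side of the threshold, 7 lost a call, 40 gained one and 16 turned direction. The calls of Egr3, Fosb and Atf3 at both stages and of Ier3 at E17.5 held in all 19 alternatives run on each. At E15.5, 5 genes were called, and 3 to 6 with a library left out, the 3 without control replicate 2. At E17.5, 4 were called, 7 with a replicate block within the stage (5 risen, 2 fallen, adding Jun, Egr1 and Ier2), and 4 to 6 with a library left out. The difference called 2, and 2 to 4 with a library left out, the 4 without E17.5 knockout replicate 1. Junb passed there with the replicate block (0.78, edgeR adjusted p = 0.017). Between the stages, control epidermis called 1, but 2 with no filter on low counts, DESeq2, only the groups compared or the replicate block, and 0 to 2 with a library left out. Knockout epidermis called 2, but 4 with DESeq2, and 2 to 4 with a library left out.

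Each of the 16 values whose direction turned had not passed the test as reported above. Jun at E15.5 was 0.044 with upper-quartile scaling, Fos at E17.5 was -0.038 with library totals, and Egr1 between the stages in knockouts was -0.081 with limma-voom and -0.0299 with the replicate block. Leaving out single libraries gave -0.29 to 0.47 for Egr1, -0.19 to 0.11 for Jun at E15.5, and -0.059 to 0.34 for Fos, -0.014 to 0.41 for Junb and -0.071 to 1.61 for Egr1 at E17.5. For the difference it gave -0.059 to 1.39 for Fosb, -0.11 to 1.57 for Egr1 and -0.18 to 0.55 for Ier2. It gave -0.39 to 1.06 for Fosb between control stages, and -0.20 to 0.0091 for Jun, -0.51 to 0.21 for Ier2 and -0.93 to 0.75 for Egr1 between knockout stages. Without E17.5 knockout replicate 2, Egr1 fell by 0.93 there (edgeR adjusted p = 0.049) and Egr2 fell by 1.101 (edgeR adjusted p = 0.017). The cause was not tested.

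The labels do not say what replicate numbers share. Deviations of same-numbered libraries correlated at 0.10 across genes at E15.5 and -0.04 at E17.5, so the numbers were not taken as pairs and the block is an alternative only. Where a library is left out, the lone one of its group is assumed to vary like the others. Over all genes, the difference called 711, but 442 and 398 without E15.5 control replicate 1 or 2, 377 without E15.5 knockout replicate 2 and 419 without E17.5 knockout replicate 1. Control epidermis called 1774 between the stages, but 666 without E15.5 control replicate 2 and 697 without E17.5 control replicate 2. Knockout epidermis called 2142, but 1192 without E15.5 knockout replicate 2 and 1160 without E17.5 knockout replicate 1. Depth limits Fosb most, at 17 to 192 counts per library.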

Other observations

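Among genes around the 10, the effects of the knockout on Zfp36 and Per1 also differed between the stages. Zfp36, whose protein promotes decay of AU-rich mRNAs, rose at E17.5 (log2 fold change 0.54 ± 0.17, edgeR adjusted p = 0.019) and fell at E15.5 (-0.53 ± 0.17, edgeR adjusted p = 0.024). It averaged 71.2 ± 4.66 CPM in E17.5 knockouts and 48.9 ± 6.71 CPM in E17.5 controls, and 55.9 ± 3.86 CPM in E15.5 knockouts and 80.9 ± 23.1 CPM in E15.5 controls (SD, n = 2 each). The difference was 1.08 ± 0.24 (edgeR adjusted p = 0.029). Per1, a clock gene that is also induced by signals, rose at E17.5 (0.65 ± 0.10, edgeR adjusted p = 0.00016). At E15.5 it was at 0.10 ± 0.09 (edgeR adjusted p = 0.43), with a difference of 0.55 ± 0.13 (edgeR adjusted p = 0.043). The dependence of the Zfp36 and Per1 values on single libraries or on the scaling was not examined. For Zfp36 the E15.5 controls had the widest spread, and scaling by library totals moved the median difference of all genes to -0.21. Of the 14 other immediate early factors 0 passed the test of that difference in edgeR, with 4 at an unadjusted p under 0.05, 2 in DESeq2 and 0 in limma-voom.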
